A study of Mus musculus with 12 samples.

Results

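The 9 genes described here, Hprt, Actb, Gapdh, Tbp, Ppia, Gusb, Ywhaz, Tfrc and Polr2a, are genes whose transcripts are commonly used as internal references in qRT-PCR. They were 9 of the 50684 Ensembl genes in the count table, matched by gene symbol. Hprt was the reference to which the qRT-PCR of the study was normalized. The 9 genes were chosen from values of these data already known, so their levels and fold changes are a description and carry no test. All 9 passed the filter on low counts, as did 19408 genes in all.

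RNA-Seq was performed on ears of 8 weeks old female C57BL/6 mice that carried no transgene or deletion. IL-17A, IL-36γ, both cytokines (IL-17A + IL-36γ) or PBS as the control were injected into the dermis of the ear pinnae in 5 µl. The dose given is 1 µg of cytokine per ear, and whether this holds for each cytokine when both were injected is not stated. The ears were taken after 4 days of consecutive treatment. The group given both cytokines is called the combination below. The study had 5 mice per group, of which 3 were sequenced, giving 12 libraries. The labels number the libraries of a group, and the study describes them as single mice.

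Between 25293468 and 34759293 reads were counted per library. Levels are CPM, counts per library size with a TMM factor, which sets the libraries to each other so that most genes have a similar level. Keratinocyte markers were abundant in every library of this tissue labelled skin, with a sum of 8 genes between 12430 and 18360 CPM after PBS. Markers of skeletal muscle were also present, and 1 PBS library stood apart by them. Their sum over 10 genes was 439.6 CPM in PBS replicate 1 and 3703 and 3221 CPM in PBS replicates 2 and 3. The sum was 2322 to 3245 CPM after IL-17A, 1290 to 2388 after IL-36γ and 271 to 1422 with the combination. PBS replicate 1 thus lay within the range of the combination, and leaving it out widens the muscle difference between PBS and that group. For Hprt, Actb, Ppia and Ywhaz, values without PBS replicate 1 are given beside the results. The part of muscle RNA in these values was not tested.

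A reference gene in qRT-PCR serves to divide out differences in the amount of RNA and in the yield of reverse transcription. The division gives the change of the target minus the change of the reference on the log2 scale, so a reference whose own transcript differs between groups shifts every target by the same amount. The 9 genes have different roles, and Tbp and Polr2a both act in transcription by RNA polymerase II. Hprt encodes the enzyme that salvages hypoxanthine and guanine for purine nucleotides. Actb encodes the cytoplasmic β-actin of the cytoskeleton, Gapdh a glycolytic dehydrogenase, and Ppia the peptidyl-prolyl isomerase cyclophilin A. Gusb encodes the lysosomal β-glucuronidase, Ywhaz the zeta member of the 14-3-3 adaptor proteins, and Tfrc the transferrin receptor for iron uptake. Tbp encodes the TATA-box binding protein, and Polr2a the largest subunit of RNA polymerase II.

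A promoter window of RefSeq (GRCm38.p6), 300 bases from 250 before to 50 after the listed start, was matched for 7 of the 9 genes. The windows of Hprt, the reference of the study, and of Gapdh and Tbp, which lay at the 2 ends of the fold changes below, are shown 5′ to 3′ on the strand of the gene. Capitals mark GGGCGG or its reverse complement CCGCCC, the core of a GC box. TATAAA and CCAAT would be in capitals as well, and neither was found in these 3 windows on either strand.
Hprt, chrX:52987828-52988127, + strand: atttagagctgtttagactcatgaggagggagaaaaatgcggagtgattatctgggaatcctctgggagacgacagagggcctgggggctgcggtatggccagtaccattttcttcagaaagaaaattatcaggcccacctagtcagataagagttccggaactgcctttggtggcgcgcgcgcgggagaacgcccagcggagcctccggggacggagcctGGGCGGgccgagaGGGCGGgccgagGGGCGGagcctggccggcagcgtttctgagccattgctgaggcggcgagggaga
Gapdh, chr6:125165724-125166023, - strand: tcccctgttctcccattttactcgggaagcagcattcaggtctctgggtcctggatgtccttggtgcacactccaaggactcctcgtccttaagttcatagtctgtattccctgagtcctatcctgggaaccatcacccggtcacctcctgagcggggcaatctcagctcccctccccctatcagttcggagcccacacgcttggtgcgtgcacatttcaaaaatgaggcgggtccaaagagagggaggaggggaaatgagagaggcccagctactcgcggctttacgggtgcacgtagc
Tbp, chr17:15499638-15499937, + strand: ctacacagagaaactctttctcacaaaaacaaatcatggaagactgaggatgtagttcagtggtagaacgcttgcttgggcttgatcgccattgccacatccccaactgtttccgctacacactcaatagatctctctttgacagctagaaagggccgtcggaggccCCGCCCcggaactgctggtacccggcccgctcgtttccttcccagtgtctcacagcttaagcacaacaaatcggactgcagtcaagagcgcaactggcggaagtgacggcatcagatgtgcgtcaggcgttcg

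The window of Hprt held GGGCGG 3 times and that of Tbp once as the reverse complement, while the window of Gapdh held none. GGGCGG was found in 35.7% of the 32851 windows of all genes, TATAAA in 13.6% and CCAAT in 37.4%. Ppia and Polr2a held TATAAA once each, and Ppia held GGGCGG 4 times. The letters ACGTG, the core of the hypoxia response element, were found in 19.6% of all windows and in those of Gapdh and Tfrc among the 9 genes. TTCNNNGAA, the core of STAT sites, was found in 8.3% of all windows and the κB motif of NF-κB in 11.2%, both in none of the 7 genes. These matches describe the letters of the windows, and binding was not measured.

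Per base of annotated exons, the 9 genes covered more than 2 orders of magnitude. TPM, counts per base of the union of annotated exons scaled to a fixed total, compares genes within a group. The union was 13576 bases over 12 transcripts for Tbp and 1289 bases over 1 transcript for Hprt. Which transcripts the ear expressed was not tested, so the order of the genes depends on the annotation. After PBS, Actb had the highest level, with 1988 ± 73.0 TPM (SD, n = 3), followed by Ppia with 318 ± 15.2 and Ywhaz with 206 ± 5.78 TPM. Gapdh had 127 ± 15.6 and Hprt 113 ± 4.22 TPM, and the libraries of these neighbours overlapped. Tfrc had 68.4 ± 4.81 TPM. Polr2a with 25.3 ± 2.56 and Gusb with 22.8 ± 2.06 TPM overlapped as well, and Tbp was lowest with 6.27 ± 0.823 TPM. After IL-17A + IL-36γ the order was the same apart from Gapdh, which stood above Ywhaz with 266 ± 38.7 against 212 ± 7.30 TPM. The counts behind these levels ranged from 668 for Tbp in IL-17A replicate 1 to 101809 for Actb in IL-36γ replicate 2.

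Hprt, the reference of the study, had a higher level in CPM after each treatment. In TPM, its mean was 112.8 after PBS, 105.5 after IL-17A, 138 after IL-36γ and 159.5 with the combination, so the rise after IL-17A held in CPM only. After PBS, Hprt had 61.2, 48.8 and 48.1 CPM in replicates 1, 2 and 3. After IL-17A, Hprt had 86.2, 72.9 and 74.9 CPM. After IL-36γ, Hprt had 89.7, 93.8 and 73.0 CPM. After IL-17A + IL-36γ, Hprt had 99.7, 101.6 and 91.0 CPM. Each of the 9 treated libraries lay above each PBS library in CPM, and the highest PBS value was that of replicate 1. Among the PBS libraries, replicate 1 had the lowest sum of muscle markers and the highest sums of keratinocyte and proliferation markers. The fold change of Hprt against PBS was 1.48 with IL-17A (log2 0.57 ± 0.12 SE, 95% interval 0.31 to 0.82), 1.62 with IL-36γ (0.70 ± 0.12, 0.45 to 0.95) and 1.85 with the combination (0.89 ± 0.12, 0.63 to 1.14). Without PBS replicate 1, these log2 values of Hprt were 0.69, 0.82 and 1.01. IL-36γ alone and the combination overlapped in Hprt, with a log2 difference of 0.19 (-0.06 to 0.44).

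**Figure D1:**
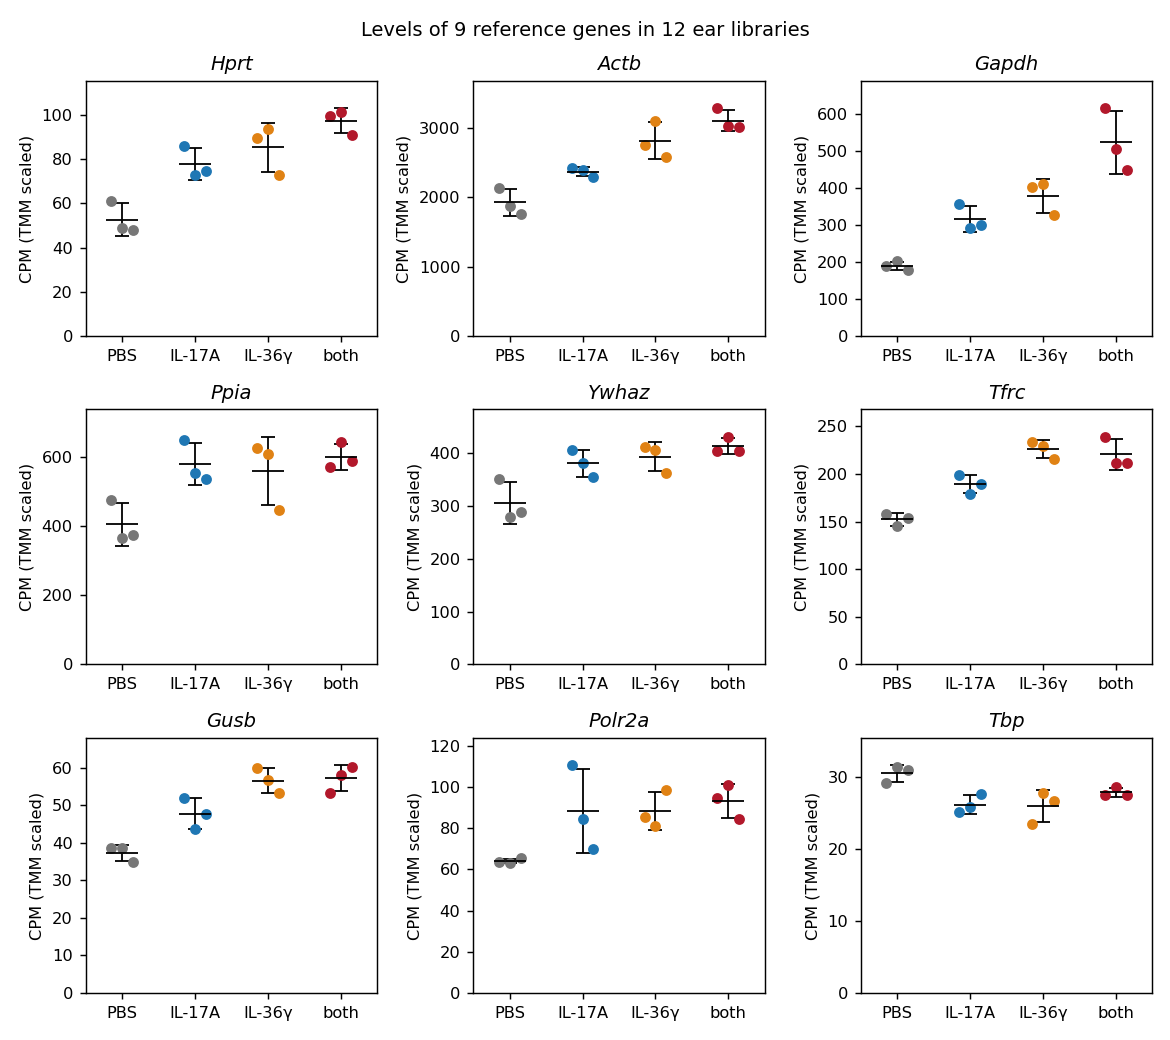
Levels of the 9 reference genes (CPM after TMM scaling, vertical axis from 0) in the 4 groups on the horizontal axis, where "both" stands for IL-17A + IL-36γ. Points are the 3 libraries of a group in the order of the replicate numbers, and black lines the mean ± SD. Tbp was lower after each treatment than after PBS, and the other 8 genes had higher means.

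Gapdh differed most from PBS among the 9 genes. After PBS, Gapdh had 187.9, 201.3 and 177.3 CPM. After IL-17A, Gapdh had 357.5, 291.6 and 298.6 CPM. After IL-36γ, Gapdh had 401.1, 409.0 and 325.4 CPM, and with the combination 614.4, 504.5 and 448.0 CPM. The groups did not overlap with PBS, and every library of IL-17A + IL-36γ lay above every library of the other groups. The fold change of Gapdh was 1.67 with IL-17A (log2 0.74 ± 0.13), 2.0 with IL-36γ (1.00 ± 0.13, 95% interval 0.73 to 1.28) and 2.77 with the combination (1.47 ± 0.13, 1.19 to 1.75). Against IL-36γ alone, Gapdh was higher by 0.46 ± 0.13 on the log2 scale after both cytokines (0.19 to 0.74). Of all 76-base windows of the Gapdh transcripts, 22.5% also occur in transcripts of other genes, 118 genes of which 111 are pseudogenes, so reads of Gapdh can be lost or gained there. The same holds for 15% of the windows of Ppia, 14.2% of Tbp, 13.7% of Ywhaz and 1.52% of Actb. Genes that share windows with Actb had 17.3% of its counts. No windows were shared for Hprt, Gusb, Tfrc and Polr2a.

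Tbp was the gene among the 9 with a lower level in CPM after each treatment. After PBS, Tbp had 29.2, 31.4 and 31.0 CPM. After IL-17A, Tbp had 25.1, 25.9 and 27.6 CPM. After IL-36γ, Tbp had 23.6, 27.8 and 26.7 CPM, and with the combination 27.5, 28.6 and 27.5 CPM. All treated libraries lay below all PBS libraries. The log2 fold change of Tbp was -0.22 ± 0.075 with IL-17A (-0.38 to -0.06), -0.23 ± 0.075 with IL-36γ (-0.39 to -0.07) and -0.13 ± 0.075 with the combination, where the 95% interval of -0.29 to 0.03 included 0. Over 2582 of its 13576 exonic bases, Tbp overlaps Pdcd2 on the opposite strand, and whether the counting used the strand is not given in the sources used here. The counts of Pdcd2 were 53.9% of those of Tbp. Pdcd2 had log2 fold changes of 0.14, -0.00 and -0.06 in the 3 comparisons with PBS, with adjusted p-values of 0.281, 0.991 and 0.616 in edgeR's quasi-likelihood test.

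Actb, Ppia and Ywhaz, which encode β-actin, cyclophilin A and a 14-3-3 adaptor, had higher levels in CPM than after PBS, with smaller differences than Gapdh. Actb, the most abundant of the 9, had 2138, 1878 and 1758 CPM after PBS. With the combination, Actb had 3281, 3020 and 3014 CPM, all above the PBS libraries. The log2 fold change of Actb was 0.30 ± 0.10 with IL-17A, 0.55 ± 0.10 with IL-36γ and 0.69 ± 0.10 with the combination. Ppia had 475.2, 364.2 and 374.6 CPM after PBS. IL-36γ gave 624.8, 606.5 and 446.5 CPM of Ppia. The Ppia values of these 2 groups overlapped, since IL-36γ replicate 3 lay below PBS replicate 1. The log2 fold change of Ppia was 0.52, 0.47 and 0.57 with IL-17A, IL-36γ and the combination, each ± 0.14. Ywhaz had the smallest difference of the 8 higher genes after IL-36γ and after both cytokines, with log2 fold changes of 0.31, 0.36 and 0.43, each ± 0.095. PBS replicate 1 was also the highest PBS library in Actb, Ppia and Ywhaz. Leaving it out gave log2 fold changes with IL-17A and with the combination of 0.38 and 0.77 for Actb, 0.65 and 0.70 for Ppia and 0.43 and 0.54 for Ywhaz.

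Tfrc and Gusb had low spread within groups and a similar pattern. Tfrc had 158.1, 145.4 and 153.5 CPM after PBS. It had 199.2, 179.5 and 189.9 CPM after IL-17A, and 233.5, 229.4 and 216.0 CPM after IL-36γ. After IL-17A + IL-36γ, Tfrc had 239.1, 211.5 and 211.2 CPM, which overlapped with IL-36γ alone. The log2 fold change of Tfrc was 0.32 ± 0.071, 0.57 ± 0.071 and 0.53 ± 0.071 with IL-17A, IL-36γ and the combination. Gusb had log2 fold changes of 0.35 ± 0.081, 0.60 ± 0.081 and 0.61 ± 0.081. Polr2a had 63.8, 63.2 and 65.4 CPM after PBS, a narrow range. After IL-17A, Polr2a had 110.6, 84.3 and 70.2 CPM, the widest spread of the 9 genes relative to its mean. The log2 fold change of Polr2a was 0.46, 0.46 and 0.54, each ± 0.14. For IL-17A it was 0.24 without IL-17A replicate 1 and 0.61 without IL-17A replicate 3.

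**Figure D2:**
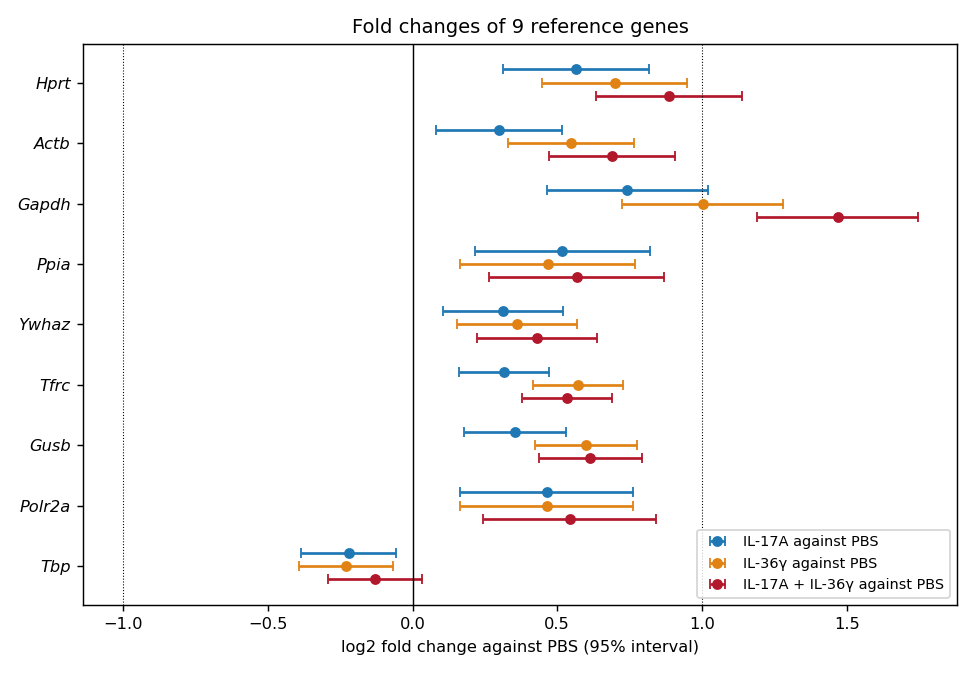
Log2 fold changes of the 9 reference genes against PBS (horizontal axis) from the fit of the 12 libraries, with 95% intervals as bars. Dotted lines mark a log2 value of -1 and 1. Gapdh was farthest to the right, with 1.47 for IL-17A + IL-36γ, and Tbp lay left of 0 in all 3 comparisons.

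In CPM, all treated libraries lay above all PBS libraries in 8 of the 9 genes with IL-17A, 7 with IL-36γ and 8 with the combination. Over all genes tested, this share was 19.6%, 22.4% and 27%. By the rule of an adjusted p below 0.05 together with a log2 value beyond 1 in either direction, the count of the 9 genes was 0 with IL-17A, 1 with IL-36γ and 1 with the combination, and the 1 gene was Gapdh. By DESeq2 the counts were 0, 0 and 1. The share of all genes called by this rule was 2.1%, 7.1% and 13.4%. With the adjusted p alone, the count of higher genes among the 9 was 5, 8 and 8, beside 7.44%, 17.3% and 23.7% of all genes. Since these contrasts were known when the 9 genes were chosen, nothing is read from the counts. The log2 fold change of Gapdh with IL-36γ was at the threshold, and this count was 0 under 7 alternatives of scaling, filter, model or tool and without any 1 of 6 of the 12 libraries, PBS replicate 3, IL-17A replicates 1 and 2, IL-36γ replicates 1 and 2 and replicate 2 of the combination. The median log2 fold change of the 9 genes was 0.35, 0.55 and 0.57, and that of all genes tested 0.04, -0.02 and -0.03.

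Without TMM scaling, by library size alone, the median of all genes moved to -0.13, -0.16 and -0.17. Relative to this median, Hprt was higher by 0.52, 0.71 and 0.91 on the log2 scale, and Tbp stood at -0.26, -0.21 and -0.11. With TMM scaling and relative to its median, the values were 0.52, 0.71 and 0.91 for Hprt and -0.26, -0.21 and -0.11 for Tbp. A scaling of the libraries shifts all genes of a comparison by about the same amount, so values relative to the median agree by construction. In TPM, which has no TMM factor, several of the 9 genes had lower means after IL-17A than after PBS. Hprt had 105.5 against 112.8, Actb 1557 against 1988, Ppia 287.1 against 317.9 and Ywhaz 161.8 against 205.5 TPM. Gusb, Tfrc and Polr2a were lower in TPM as well, while Gapdh had 132.8 against 127.2. After IL-36γ, Ywhaz had 199.5 TPM, also below PBS.

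The 9 genes were also compared between the treated groups. Comparing IL-17A + IL-36γ with IL-36γ alone, their log2 differences ranged from -0.04 for Tfrc to 0.46 for Gapdh, and 0 of 9 passed the rule with or without the fold threshold, beside 0.0103% of all genes called and 0% called as higher by the adjusted p alone. In this comparison, 2938 genes had an unadjusted p below 0.05 in edgeR, and DESeq2 called 95. Of the 9 genes, 1 was at an unadjusted p below 0.05 in edgeR. DESeq2 called 0 of the 9 with the fold threshold and 1 by the adjusted p alone. Comparing IL-17A + IL-36γ with IL-17A alone, the differences ranged from 0.05 for Ppia to 0.73 for Gapdh. By the adjusted p alone 4 of the 9 were higher, beside 15.1% of all genes, and 0 were called with the fold threshold, beside 8.95%. The interaction is the log2 change that IL-17A gave on top of IL-36γ less the one it gave on top of PBS. It was below 0 for 8 of the 9 genes, with -0.38 ± 0.16 for Hprt, -0.35 ± 0.10 for Tfrc and -0.34 ± 0.11 for Gusb, and 0.32 ± 0.11 for Tbp. The median interaction of all genes tested was -0.07 with TMM and 0.11 by library size alone. By library size alone, the interaction of Actb turned to 0.017. Of the 9 genes, 0 were called in edgeR, with 4 at an unadjusted p below 0.05, beside 0.551% of all genes called. By DESeq2, 2 of the 9 were called, and 1780 of the 19408 genes. Without PBS replicate 1, the interaction of Hprt was -0.50, and edgeR called 1 of the 9 genes and 1534 of all genes.

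The ratio of 2 genes within a library does not depend on how the libraries are scaled. The stability measure M of a gene is the mean, over the other 8 genes, of the SD of the log2 ratio across the 12 libraries, and a low M marks a gene that moves with the others. M was 0.199 for Actb, Tfrc and Ywhaz and 0.200 for Gusb, values that differed by less than their change on leaving out 1 library. Hprt was the fifth of the 9 with 0.218, followed by Ppia with 0.224 and Polr2a with 0.251. Gapdh with 0.387 and Tbp with 0.400 had the highest M. Within groups, M lay between 0.129 for Ywhaz and 0.221 for Polr2a, and it was 0.134 for Hprt.

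Over the 36 pairs, the SD of the log2 ratio ranged from 0.102 for Gusb and Tfrc to 0.640 for Gapdh and Tbp, with a median of 0.209. The ratio of Ppia to Ywhaz had the second lowest SD of 0.111. The ratio of Hprt to Actb had an SD of 0.131 and changed by 0.27, 0.15 and 0.20 on the log2 scale with IL-17A, IL-36γ and the combination. The ratio of Hprt to Gapdh changed by -0.17, -0.30 and -0.56, and that of Hprt to Tbp by 0.79, 0.93 and 1.02.

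**Figure D3:**
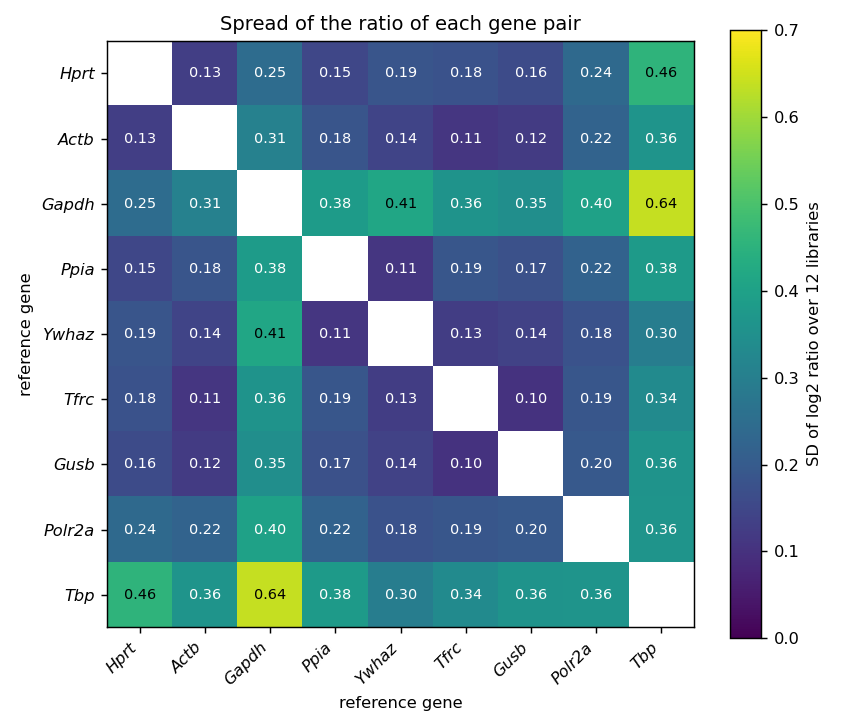
SD of the log2 ratio of each pair of the 9 reference genes over the 12 libraries, as printed numbers and colours. Pairs with Tbp or Gapdh had the highest SD, up to 0.64 for the pair of both, and the pair Gusb and Tfrc had 0.10.

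The level of a gene and its ratio to the other genes ranked Tbp in opposite ways. The SD of log2 CPM over the 12 libraries was lowest for Tbp among the 9, with 0.118, and 13% of all genes tested had a lower SD. Hprt had an SD of 0.372, and 65% of all genes had a lower one. Gapdh had 0.571, with 85.3% of all genes below, and Ywhaz 0.201, with 36.6% below. The median SD of all genes tested was 0.270. Within groups the SD of Hprt was 0.158, beside a median of 0.179 for all genes.

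Defb4 and S100a8, antimicrobial peptides of inflamed skin, were the targets of the qRT-PCR of the study and were expressed here relative to each of the 9 genes. S100a8 counts per Hprt count were 0.0624, 0.645 and 0.0466 after PBS and 37.8, 31.2 and 34.4 with the combination. The log2 change of S100a8 was 8.12 ± 1.20 (SE) relative to Hprt, 7.56 ± 1.11 relative to Gapdh, 9.14 ± 1.15 relative to Tbp and 9.01 ± 1.16 with TMM scaling. The highest and the lowest value thus differed by the 1.59 by which the ratio of Gapdh to Tbp changed. The PBS libraries varied most, with the highest S100a8 level in replicate 2. Without PBS replicate 2 the value relative to Hprt was 9.31, and without PBS replicate 3 it dropped to 7.42.

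The comparison of IL-17A + IL-36γ with IL-36γ alone was smaller for S100a8. Relative to Hprt the log2 change was 1.13 ± 0.22, relative to Gapdh 0.86 ± 0.23, relative to Tbp 1.22 ± 0.32 and relative to Tfrc 1.36 ± 0.29. With TMM scaling it was 1.32 ± 0.32. Fold changes between 1.82 and 2.57 were thus obtained from the same libraries with the 9 references.

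Defb4 had 3, 7 and 2 counts after PBS, at or near the floor of 3 counts, so its ratios to PBS are rough. After IL-17A + IL-36γ, Defb4 had 1083, 486 and 422 counts. Per 1000 counts of Hprt, these were 424, 175 and 155, and 1.36, 4.06 and 1.26 after PBS. The log2 change of Defb4 was 6.67 ± 0.67 relative to Hprt, 6.11 ± 0.53 relative to Gapdh and 7.70 ± 0.65 relative to Tbp. For IL-17A alone, Defb4 had 41, 5 and 17 counts, and its log2 change relative to Hprt was 1.77 ± 0.97.

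**Figure D4:**
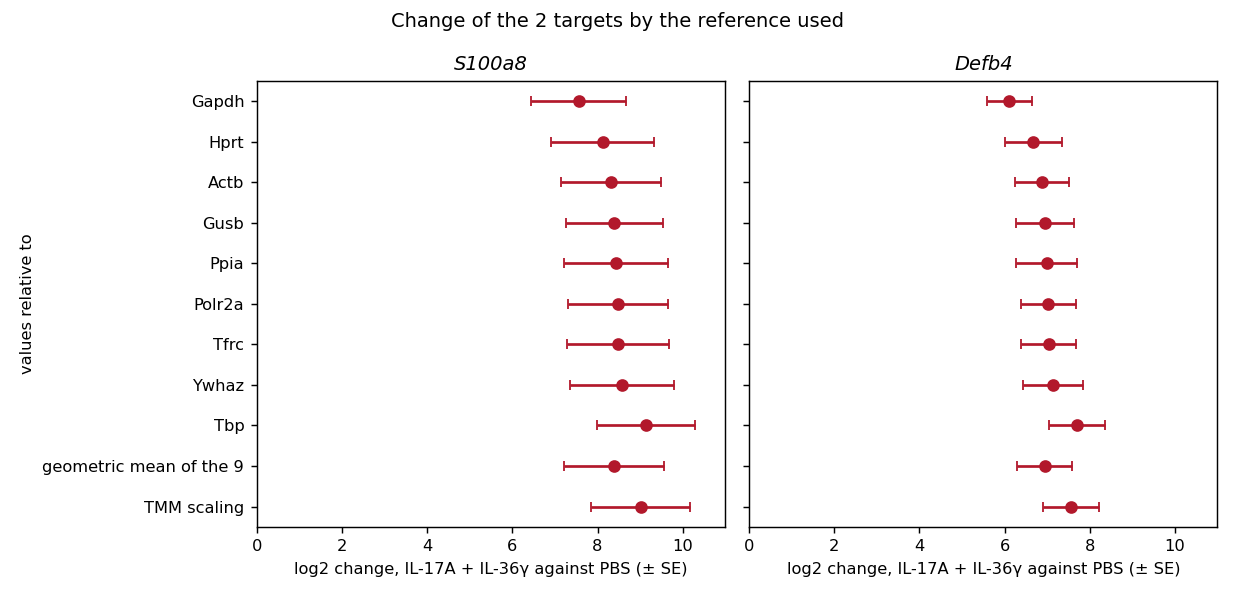
Log2 change of S100a8 and Defb4 in IL-17A + IL-36γ against PBS (horizontal axis, bars are ± SE from 3 libraries per group) by the reference used (vertical axis). The values for S100a8 ran from 7.56 relative to Gapdh to 9.14 relative to Tbp.

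Scaling all libraries to 1 reference gene moved the calls of all genes, as an alternative chosen after seeing the data. With TMM, 1426 genes were higher and 1177 lower after IL-17A + IL-36γ than after PBS. With all libraries scaled to Hprt, 495 were higher and 8371 lower. With Gapdh, 279 were higher and 15880 lower, and with Tbp, 1676 were higher and 818 lower. With the geometric mean of the 9 genes, 693 were higher and 4819 lower. The median log2 value over the genes tested was -0.92, -1.47, 0.10 and -0.65 in these 4 scalings.

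Other genes in use as qPCR references were compared by the test across all genes, with adjusted p-values from edgeR's quasi-likelihood test. The list of 24 was written with earlier results of these data known. With the fold threshold, 0 of 24 rose after IL-17A, beside 2.1% of all genes called in either direction. At an unadjusted p below 0.05 there were 11 of 24 in edgeR, and DESeq2 called 0. With IL-36γ alone 3 of 24 rose, as did 3 with the combination, beside 7.1% and 13.4% of all genes called in either direction. By the adjusted p alone, 8, 10 and 15 rose, beside 7.44%, 17.3% and 23.7% of all genes. By the same rule 0, 0 and 1 (Eif4a2) fell, beside 677, 2153 and 4056 of the 19408 genes. The median log2 fold change of the list was 0.20, 0.25 and 0.30. The 3 past the fold threshold were Pgk1, a glycolytic kinase, Ldha, which converts pyruvate to lactate, and B2m, the light chain of MHC class I. Pgk1 rose from 51.7 ± 3.48 CPM after PBS to 177 ± 35.3 after both cytokines (log2 1.78 ± 0.14, adjusted p = 1.0e-05). Ldha rose from 264 ± 19.6 to 732 ± 99.6 CPM (1.47 ± 0.15, adjusted p = 3.8e-05). B2m rose from 234 ± 41.2 to 570 ± 48.6 CPM after both cytokines (1.28 ± 0.13, adjusted p = 2.9e-05) and to 637 ± 6.13 CPM after IL-36γ alone.

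A second list held 11 housekeeping genes proposed for even expression across tissues. None passed the fold threshold in any comparison with PBS, in edgeR or in DESeq2, beside 2.1%, 7.1% and 13.4% of all genes called in edgeR. By the adjusted p alone, 1, 5 and 6 of 11 rose, beside the same 7.44%, 17.3% and 23.7% of all genes. At an unadjusted p below 0.05 there were 9, 5 and 7 of 11, and 6013, 8116 and 10152 of the 19408 genes. Over all 44 reference genes, M was lowest for Rab7, a GTPase of late endosomes, with 0.188, and for Vcp and Canx, an ATPase and a chaperone of protein quality control, both with 0.192. It was highest for Pgk1 (0.554), B2m (0.535) and Ldha (0.460). Of the 9 genes, Ywhaz ranked 5 and Tfrc 11, while Hprt ranked 36, Tbp 38 and Gapdh 41 of 44.

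**Figure D5:**
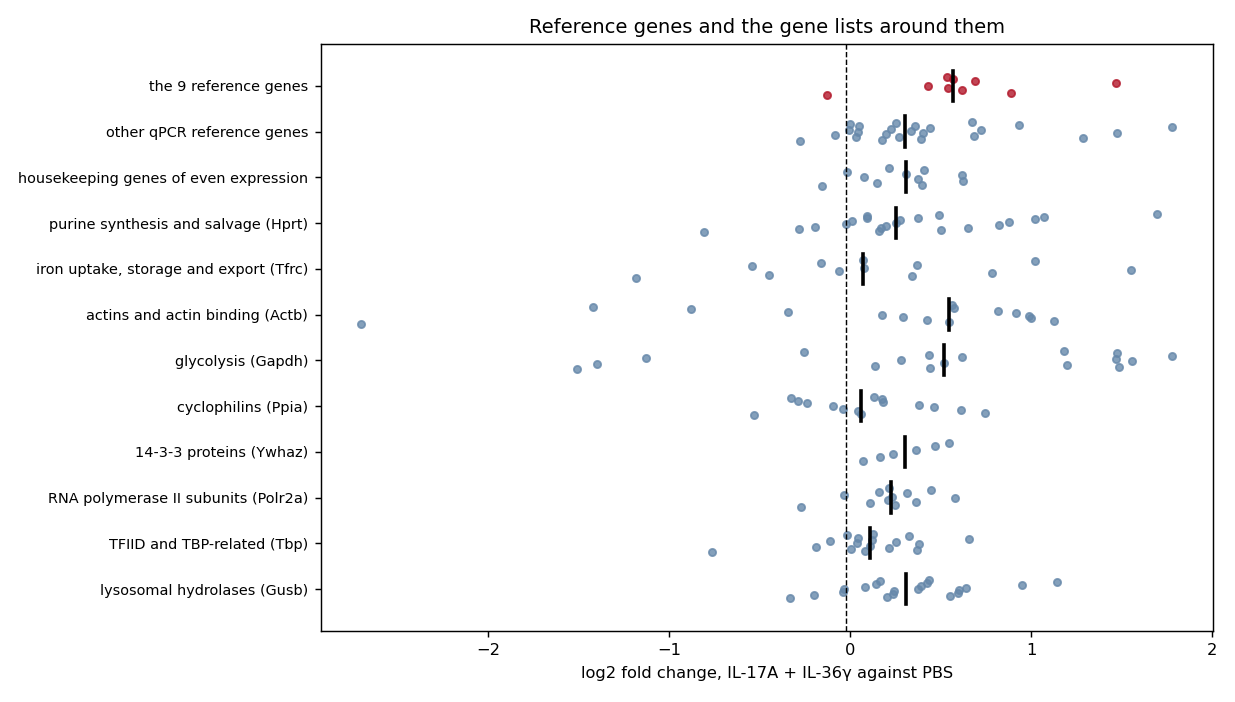
Log2 fold change of single genes in IL-17A + IL-36γ against PBS (horizontal axis) in the 9 reference genes (red) and in the lists of other reference genes and of genes related to 1 of the 9 (blue). Thick black lines are the medians of the lists and the dashed line the median of all genes tested. The medians were 0.57 for the 9 genes and 0.30 for the 24 other references.

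Genes that share a pathway or family with each of the 9 were counted next, by the adjusted p alone in IL-17A + IL-36γ against PBS. By this rule 23.7% of all genes rose, and 4056 of the 19408 genes fell. Of 17 genes of glycolysis, the pathway of Gapdh, 10 rose and 1 fell, with a median of 0.52. Among those that rose, Pgk1 and Ldha are also in the list of 24 and Gpi1 is in that of 11, so the lists are not separate. Eno1 rose from 134 ± 19.3 to 394 ± 70.1 CPM (log2 1.56 ± 0.15, adjusted p = 2.8e-05), and Pkm, the pyruvate kinase, from 485 ± 39.4 to 1357 ± 206 CPM (1.48 ± 0.12, adjusted p = 1.3e-05). Both also passed the fold threshold after IL-36γ. The muscle forms Pgam2 and Eno3 and the muscle kinase Pfkm are in this list, with log2 values of -1.40, -1.51 and -1.13, of which that of Pfkm passed (adjusted p = 0.016).

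Of 21 genes of purine synthesis and salvage, the pathway of Hprt, 11 rose and 2 fell, with a median of 0.25. Ada, adenosine deaminase, rose from 4.12 ± 1.03 to 13.4 ± 3.14 CPM (log2 1.69 ± 0.22, adjusted p = 0.00013). Gda, which deaminates guanine, rose by 1.07 ± 0.17 (adjusted p = 0.00045) and Aprt, the salvage enzyme of adenine, by 1.02 ± 0.13 (adjusted p = 0.00011). Of these, Ada passed the fold threshold after IL-36γ alone as well.

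Of 15 actins and actin-binding genes, 9 rose and 2 fell, with a median of 0.55, near the 0.69 of Actb. Tmsb10, a thymosin that binds actin monomers, rose from 27.2 ± 1.49 to 59.4 ± 11.1 CPM (log2 1.13 ± 0.21, adjusted p = 0.0014). The muscle actins Acta1 and Actc1 were in this list, with log2 values of -1.42 and -2.70 that did not pass (adjusted p = 0.067 and 0.062).

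Of 12 genes of iron uptake, storage and export, 5 rose and 2 fell, with a median of 0.07 beside 0.53 for Tfrc. Hmox1, which releases iron from heme, rose from 60.3 ± 12.0 to 177 ± 15.2 CPM (log2 1.55 ± 0.15, adjusted p = 2.9e-05). Fth1, the ferritin heavy chain, rose by 1.02 ± 0.10 (adjusted p = 3.6e-05), and Trf, transferrin, fell by 1.19 on the log2 scale from 17.6 ± 5.44 to 7.71 ± 1.70 CPM (adjusted p = 0.0063). Of 20 lysosomal hydrolases, 12 rose and 0 fell, with a median of 0.31 beside 0.61 for Gusb, and Galns rose by 1.14 ± 0.13 (adjusted p = 7.3e-05).

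The families of the other 4 genes held no member past the fold threshold in the comparisons with PBS, beside 2.1%, 7.1% and 13.4% of all genes. Of 15 cyclophilins beside Ppia, 4 rose and 1 fell, with a median of 0.06. Of 6 other 14-3-3 proteins, 4 rose, among them Sfn, the form of stratified epithelium, with a median of 0.30. Of 12 other RNA polymerase II subunits, 6 rose and 1 fell, with a median of 0.22 beside 0.54 for Polr2a. Of 17 genes of TFIID and related factors, 6 rose and 1 fell, with a median of 0.11, while Tbp stood at -0.13.

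The 3 genes tested whose log2 CPM over the 12 libraries were most like Hprt were Arpc2 (Pearson r = 0.992), Actr2 (0.991) and Txndc17 (0.991). Arpc2 and Actr2 encode subunits of the Arp2/3 complex that nucleates branched actin filaments, and Txndc17 a thioredoxin-like protein. They were picked for this likeness over 12 libraries that share a scaling, so the values describe the choice. Their log2 fold changes after IL-17A + IL-36γ were 0.57, 0.61 and 0.63.

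Markers of cell types moved with the same groups. In bulk RNA, fewer cells of a type and less RNA per cell cannot be told apart. The summed level of 9 neutrophil markers was 20.4 to 100.5 CPM after PBS and 387 to 885 after IL-17A. It was 2289 to 4848 CPM after IL-36γ and 7627 to 10070 after both cytokines. The 9 include S100a8 and S100a9, which the study ascribes to macrophages and keratinocytes as well, so this sum is not specific to neutrophils. Ly6g and Stfa2l1 were at 0 in at least 1 PBS library. The sum of 8 proliferation markers was 397 to 745, 674 to 813, 1200 to 1406 and 1574 to 1784 CPM in the same order. The 8 keratinocyte markers summed to 12430 to 18360, 18300 to 20580, 23240 to 32070 and 29840 to 35910 CPM, and the 8 macrophage markers to 780 to 907, 1235 to 1656, 1860 to 2088 and 1731 to 1906 CPM. By the adjusted p alone, 5 of the 8 keratinocyte markers rose and 0 fell after both cytokines, beside 4608 and 4056 of the 19408 genes. Their log2 fold changes ranged from -0.09 to 4.21, so the sum does not stand for each marker.

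Muscle and fat markers had their lowest sums after both cytokines. The 10 muscle markers summed to 439.6 to 3703, 2322 to 3245, 1290 to 2388 and 271 to 1422 CPM, and the 6 adipocyte markers to 168 to 236, 179 to 382, 95.5 to 205 and 54.4 to 110 CPM. Of 7 red blood cell markers, 6 were tested and all 6 were called after IL-17A, beside 2.1% of all genes. The sum of the 7 was 61.6 to 105 CPM after PBS and 130 to 333 CPM after IL-17A. The 7 T cell markers summed to 29.9 to 33.7 CPM after PBS and 24.2 to 26.9 after both cytokines. After both, 2 of the 7 rose and 2 fell by the adjusted p alone, beside 4608 and 4056 of the 19408 genes. The median log2 fold change of the 7 was 0.21. The part of these markers in the levels of the 9 reference genes was not tested.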

How the data were processed

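RNA of mouse ears was sequenced as stranded total RNA (paired reads of 76 cycles) in 12 libraries. Per the labels and the study's methods, STAR 2.5.2b was used by the authors for alignment to mm10, and featureCounts of Subread 1.5.1 for counting per Ensembl gene. The deposited counts are whole numbers without normalization. The annotation release and the strand setting of the counting are not given in the sources used here. The deposited tables of comparisons, made with DESeq2 1.30.0, hold means of normalized counts, log2 fold changes and p-values, and only their gene symbols were used.

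Libraries were grouped by their titles. Counts were analysed in R 4.3.3 with edgeR 4.0.16 (filterByExpr with a minimum count of 10, TMM, quasi-likelihood test on 4 group means in 1 fit of the 12 libraries, Benjamini-Hochberg adjustment over 19408 genes), limma 3.58.1, the R package data.table (version 1.17.8) and DESeq2 1.42.0. Changes were called at an adjusted p below 0.05 with a log2 value beyond 1 in either direction, and interactions at an adjusted p below 0.05. Standard errors and 95% intervals came from the same fit. Ratios of counts used a pseudocount of 0.5 and log2 CPM a prior count of 2. Lengths and shared windows of 76 bases were taken from GENCODE vM21. The procedure was tested on simulated data. No 2 libraries were copies (lowest chi-square per gene 7.09).

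The members and the lists were chosen with earlier results of these data known. The genes named are the 9 members, Defb4, S100a8, up to 3 called genes of each list with the largest change after IL-17A + IL-36γ, the 3 lowest and highest M, and the 3 genes most like Hprt. Eif4a2, Gpi1, Sfn, Pgam2, Eno3, Pfkm, Acta1, Actc1, Pdcd2 and S100a9 are named outside this rule, once their values had been seen. Alternatives were other scalings, filters, DESeq2's likelihood ratio test, only the 2 groups compared, no fold threshold, a block by replicate number, omission of each library, other pseudocounts and, added later, scaling to reference genes. Counting error is part of the spread the test estimates, and the depth of 25293468 to 34759293 counts limits Defb4 after PBS. Pairing by replicate number required all correlations of the deviations of same-numbered libraries to be over 0.1. Of 18, from -0.199 to 0.352, 9 were, so the numbers were not taken as pairs. The qRT-PCR itself was not analysed here.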

Additional observations from a re-analysis of the deposited data

Results flagged for a closer look

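Among the genes of the lists named for the 9 reference genes, Tmsb4x, a thymosin that binds actin monomers, was the 1 gene of 135 for which edgeR called a difference between the changes by IL-17A with and without IL-36γ. DESeq2 called 15 of the 135. Its level was 404 ± 32.5 CPM with PBS, 582 ± 44.9 with IL-17A, 647 ± 44.2 with IL-36γ and 590 ± 18.4 with the combination (SD, n = 3). The interaction of Tmsb4x was -0.66 ± 0.12 on the log2 scale with an adjusted p of 0.0475 in edgeR's quasi-likelihood test, at the edge of the threshold. Over 18 alternatives the estimate ranged from -0.73 to -0.48, the adjusted p from 3.638e-05 to 0.148, and 12 of the 18 did not call it: RLE size factors, library size alone and 10 of the 12 omissions of 1 library, those other than PBS replicate 1 and IL-36γ replicate 2. Dixon's test for a single outlying library was not made, since groups held 3 libraries.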

How the results depend on the processing

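The log2 fold changes of the 9 genes against PBS kept their sign under 19 alternatives, omissions of 1 library included. Scaling to a reference gene is not among these, and there signs turn, as the ratios of pairs show. TPM is not among them either. In TPM, Hprt, Actb, Ppia, Gusb, Ywhaz, Tfrc and Polr2a had lower means after IL-17A than after PBS, and Ywhaz also after IL-36γ. Hprt after IL-17A was 0.396 by library size alone, and M of Hprt was 0.134 within groups. For the other values, the cause of a change was not tested unless fewer genes or libraries give it. Without a fold threshold, 2120, 5519 and 8664 of all genes were called with IL-17A, IL-36γ and the combination against PBS, 4 and 6355 with the combination against IL-36γ and IL-17A, and 5, 9, 8, 0 and 4 of the 9 genes and 8, 10, 16, 0 and 10 of the 24 others in the same order. For IL-17A, 9 genes were called from its 6 libraries alone. Scaling to Hprt, Gapdh and the geometric mean called 2474, 3816 and 1381 genes for IL-17A, 5063, 9998 and 3052 for IL-36γ and 8866, 16159 and 5512 for the combination, and scaling to Tbp 662 for IL-17A. By library size alone the share of higher genes among the called ones was 21.6%, 54.1% and 41.9% in the 3 comparisons, beside 51.1%, 72% and 54.8% with TMM. Gapdh was no longer called for IL-36γ (0 of 9 genes) with RLE size factors, library size, no filter, at least 10 counts in every library, the block, only the 2 groups compared and DESeq2, and 1 of the 24 others remained by library size. For IL-17A + IL-36γ against IL-36γ, 82 genes were called without a filter, 95 by DESeq2 and 0 by library size, at least 10 counts in every library, the block and the 2 groups alone. The interaction was called for 38 genes with RLE size factors, 3 by library size, 462 without a filter and 1780 by DESeq2, with 2 of the 9 and 2 of the 24 by DESeq2 and 1 of the 24 without a filter. Of the named genes of the lists, Gda, Aprt, Fth1 and Tmsb10 (combination) and Pgk1, Ldha, Ada, Eno1 and Pkm (IL-36γ) fell under the fold threshold by library size alone, at log2 values of 0.92, 0.88, 0.87, 0.95, 0.99, 0.89, 0.97, 0.92 and 0.96 in this order. They also fell under it without PBS replicate 1 (Gda, Fth1), PBS replicate 3 (Aprt, and Ldha, Ada and Eno1 for IL-36γ), IL-36γ replicate 1 (Ldha), IL-36γ replicate 2 (Ldha, Ada, Eno1) and replicates 1 (Gda, Aprt, Fth1) or 2 (Tmsb10) of the combination, and Aprt and Fth1 without a filter. Hmox1 with IL-17A passed it without PBS replicate 1 or IL-17A replicate 2, and Galns with IL-36γ without PBS replicate 1.

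With the replicate number as a block, 527, 1435, 2625, 0 and 1791 genes were called in the 5 comparisons and 883 in the interaction, with 1 of the 9 and 3 of the 24 genes in the interaction. The numbers are only shared between groups, and 8 of 12 libraries correlated best with their own number.

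Leaving out 1 library gave 11 (without PBS replicate 3) to 913 (without PBS replicate 1) genes for IL-17A, 1047 to 1799 for IL-36γ, 2202 to 3170 for the combination, 0 to 62 (without IL-36γ replicate 2) for the combination against IL-36γ, 1291 to 1990 against IL-17A, and 1 (without IL-36γ replicate 1) to 1534 (without PBS replicate 1) in the interaction. Of the 9 genes, 0 to 1 were called for IL-36γ, 1 to 2 for the combination (Hprt as well without PBS replicate 1) and 0 to 1 in the interaction, and of the 24 others 0 to 2 against IL-17A and 0 to 3 in the interaction. Defb4 relative to Hprt with a pseudocount of 5 was 3.73 (IL-36γ) and 5.57 (combination), and 7.70 relative to Tbp and 7.57 with TMM scaling for the combination. Leaving out 1 library gave 1.13 to 2.56, 4.21 to 5.28 and 6.22 to 7.16 for Defb4 in the 3 comparisons with PBS and 4.01 to 5.91, 6.29 to 8.18 and 7.42 to 9.31 for S100a8.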
